A study of Mus musculus with 6 samples.

Results

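Integrins, cadherins, protocadherins, laminins and nectins are the main adhesion systems of the brain beside the immunoglobulin family to which L1cam belongs, and their transcripts are described here in cerebellum with and without L1cam. The members are the probe sets whose only gene symbol in the array annotation starts with Itga, with Itgb, Cdh or Nectin and a number, with Pcdh, or with Lama, Lamb or Lamc and a number. They came to 72 of the 12422 probe sets tested and covered 46 of the 8251 genes with a probe set of their own in the array annotation. By family there were 21 probe sets for integrin alpha chains, 10 for integrin beta chains, 17 for cadherins, 3 for protocadherins, 14 for laminins and 4 for nectins. The remaining 3 measure Itgb1bp1, a cytoplasmic protein that binds the tail of integrin beta 1 and is no integrin chain, although its symbol has the same start.

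RNA was taken from the cerebellum of 3 male mice carrying an L1CAM knockout on their only X chromosome (-/Y) and from 3 wild type siblings whose sex the labels leave out, all on postnatal day 11 and of strain 129S2/SvPasCrlf. Each sample was hybridised to 1 Affymetrix U74Av2 array. The labels name no further allele or treatment, do not describe the altered L1cam allele, and name no Cre line or tissue to which the loss is restricted. Values are the authors' log2 expression values from RMA, a method that corrects background, normalizes between arrays and averages the probes of a probe set.

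Integrins are pairs of an alpha and a beta chain that bind matrix proteins or other cells and pass force and signals to the cytoskeleton. Cadherins bind the same cadherin on a neighbouring cell in the presence of calcium and are anchored to actin by catenins. Laminins are matrix proteins of 3 chains, alpha, beta and gamma, that form the basement membranes of vessels and of the pial surface, where the end feet of Bergmann glia attach through integrins and dystroglycan. Nectins are immunoglobulin-type molecules that bind each other across the cell gap and recruit afadin. L1 itself can bind integrins on other cells, so these systems meet at the protein level.

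Facts of the arrays bear on the values below. L1cam lay lower in every knockout array (8.25, 8.01 and 7.91 on the log2 scale) than in any wild type array (8.79, 8.48 and 8.73). The log2 difference was -0.60 (SE 0.10), short of the threshold (limma adjusted p = 0.841, 2-sided exact permutation p = 0.1, the smallest that 3 against 3 allow). Knockout 1, labelled male like the others, read 7.11 for the Y-linked gene Eif2s3y and 6.67 for Uty, against at least 8.59 and 7.32 in the other 5 arrays. The Y-linked gene Kdm5d did not set it apart, at 7.217 against at least 7.218. Knockout 1 also had the widest gap between the 3' and 5' control probe sets for Gapdh, 0.67 log2 against at most 0.13 elsewhere, a gap that widens when RNA is shorter. Without this array 11 of the 72 members described below changed the sign of their difference, from Cdh6, Cdh11, Cdh16, Itga6, Itga8, Itgav, Itgb1bp1, Lamb2 and Pcdh7, all of them but Lamb2 with differences under 0.05 log2. The families' medians without it are given with each family. The cerebellar origin was plain in the marker genes: the brightest probe sets of the 4 Purkinje cell genes measured lay at or above percentile 96.3 of mean value among all probe sets (62.7 and 87.0 at the other probe sets, of Pvalb and Pcp2), while the forebrain genes Neurod6 and Tbr1 lay at 28.5 and 28.0. Choroid plexus genes differed between arrays. Ttr read 10.20 in knockout 3 and 9.71 in wild type 1, against at least 12.13 in the other arrays. Kl read 7.53 and 7.60 in these arrays, against at least 8.14. Folr1 was lowest in both at its dimmer probe set (9.38 and 9.37), but wild type 1 was not low at the brighter (9.87). The part of dissection in the values below was not tested. A whole tissue was measured, so fewer cells of a type and less RNA per cell cannot be told apart in any difference below.

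No adhesion transcript differed by genotype past the threshold. None of the 72 probe sets had a limma adjusted p under 0.05, against 0.0% of all probe sets, and the lowest adjusted p among them was 0.841. An unadjusted p under 0.05 was found for 4 (5.08% of all probe sets), all with a lower knockout mean (2.62% of all probe sets were lower at that p and 2.46% higher): 1 of the 2 for Nectin3, both for Lamb1 and 1 of the 3 for Cdh4. That count was 13 without knockout 2 (8.68% of all probe sets), 2 without knockout 1 (3.88%), 2 without knockout 3 (4.93%) and 1, for Nectin3, without wild type 3 (3.18%). The measurements were tight: the median within-group SD was 0.077 log2, beside 0.086 over all probe sets. The 95% interval of the difference lay inside 1.5-fold in either direction for all 72 probe sets, as for 12338 of the 12422 tested. These intervals are of array values, on which the targeted gene L1cam itself read only 1.52-fold lower in the knockouts.

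As deposited, small differences leaned downward, among the members as across the array, a lean that median centring turned over for all probe sets but not for the members. The knockout mean was lower for 52 members and higher for 20, which is 72.2% lower, beside 62.3% of all probe sets. After quantile normalization 58.3% were lower (52.2% of all probe sets), after cyclic loess 58.3% (52.2%) and after median centring 56.9% (44.6%). The median log2 difference over the members was -0.041, beside -0.023 over all probe sets, and it ran from -0.066 without knockout 2 to -0.026 without knockout 3. The genotypes did not overlap for 11 members, 9 lower and 2 higher in the knockouts, against 10.4% of all probe sets (6.63% lower and 3.76% higher). There were 5 such members after quantile normalization (9.71% of all probe sets), 7 after cyclic loess (10.05%) and 8 after median centring (9.95%).

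**Figure D1:**
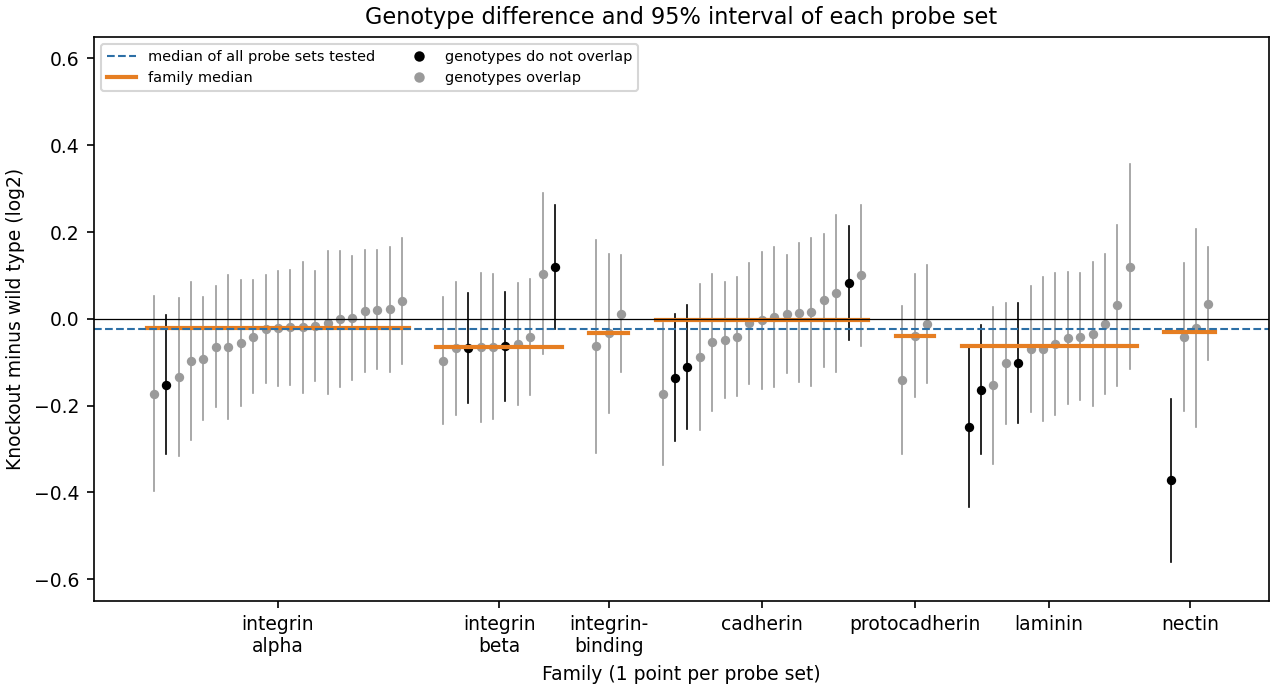
Log2 difference (knockout minus wild type, vertical axis) of each of the 72 probe sets with its 95% interval, grouped by family, with family medians as bars and the median of all probe sets dashed. Nearly all points sit within 0.2 of 0. The exceptions are 1 probe set for Nectin3 at -0.37 and 1 for Lamb1 at -0.25. The family medians of integrin alpha chains and cadherins turn above 0 under all 3 other scalings, and that of nectins under quantile normalization and median centring.

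Level was first described without regard to genotype. Of the 72 probe sets 12 lay at percentile 75 or above of mean value among all probe sets and 24 below percentile 25. The median percentile was 31.5 for integrin alpha chains, 48.7 for integrin beta chains, 28.2 for cadherins, 55.4 for protocadherins, 42.9 for laminins and 30.1 for nectins. These are values of probe sets and not amounts of RNA per gene. The 2 probe sets for Lamc1 differed by 4.72 log2 in mean value and the 3 for Itgav by up to 4.29, so no order of genes is read from them. Probe sets near the bottom, such as Cdh9 at percentile 3.86 and Itga4 at 3.47 to 14.8, have little room to show a lower value.

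**Figure D2:**
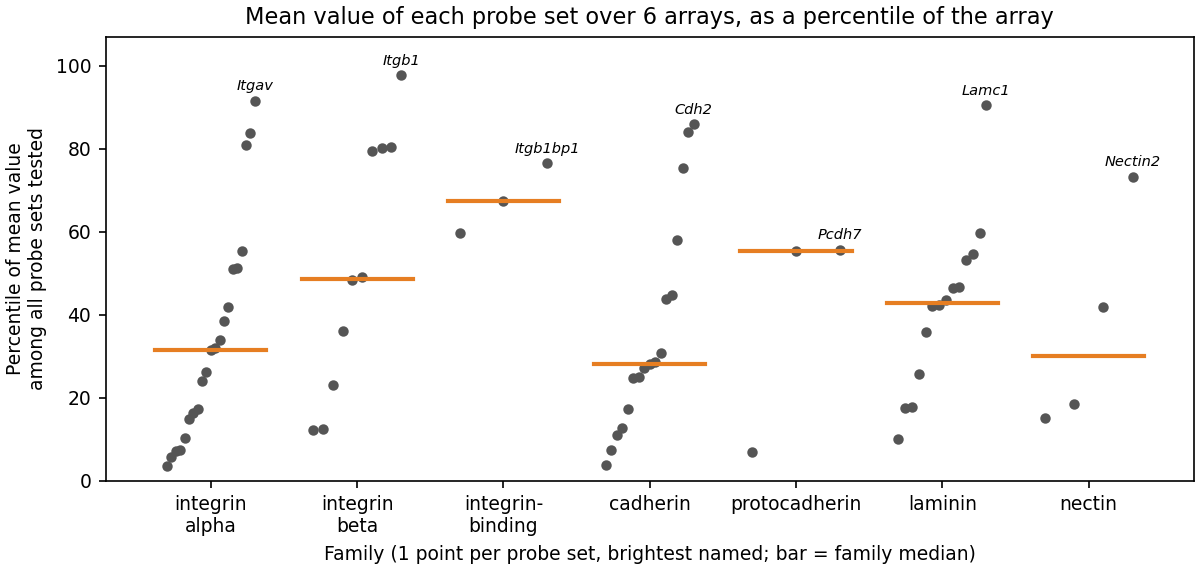
Mean value over the 6 arrays of each probe set, as its percentile among all 12422 probe sets (vertical axis), by family, with the family median as a bar and the gene of the brightest probe set named. Itgb1 reaches percentile 97.7, Itgav 91.6, Lamc1 90.5 and Cdh2 86.0, while each family also holds dim probe sets apart from Itgb1bp1, whose lowest is at 59.7.

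Among integrin chains, Itgb1, the beta chain shared by most matrix receptors, was the only integrin gene with both probe sets about 0.1 log2 higher in the knockouts. At the dimmer of them the knockouts read 10.48, 10.36 and 10.51 and the wild type arrays 10.36, 10.35 and 10.28 on the log2 scale. The groups did not overlap, but knockout 2 exceeded wild type 1 only in the third decimal (10.358 against 10.355). The log2 difference was 0.12 (SE 0.064, 95% interval -0.024 to 0.26, limma adjusted p = 0.922). The brighter one read 12.60, 12.41 and 12.75 in the knockouts, against 12.47, 12.52 and 12.47 in wild type. Here knockout 2 was the lowest array of all and the other knockouts the highest, for a log2 difference of 0.10 (SE 0.083, limma adjusted p = 0.932). Both differences stayed above 0 under every scaling and without any 1 array, with a lowest value of 0.024, at the brighter probe set without knockout 3. At the dimmer one the lack of overlap fixed the sign when 1 array was left out. Both probe set IDs carry a suffix that was counted here as open to cross-hybridization, the binding of related transcripts.

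The other beta chains had lower knockout means throughout, by 0.10 log2 or less. Itgb5, which pairs with the alpha v chain to bind vitronectin, read 10.34, 10.46 and 10.27 in the knockouts, against 10.45, 10.44 and 10.47 in wild type, a log2 difference of -0.10 (SE 0.066, limma adjusted p = 0.927). Knockout 2 lay within the wild type values there and the other knockouts below them. Its other probe set differed by -0.057. Itgb3, the beta chain of platelet and endothelial vitronectin receptors, differed by -0.068 (-0.007 without knockout 1) and Itgb4, the partner of the alpha 6 chain in epithelia and Schwann cells, by -0.042. Over the 10 probe sets 8 were lower, with a median log2 difference of -0.064 that the other scalings kept below 0 (-0.027 by quantile normalization, -0.032 by median centring, -0.033 by cyclic loess). Without knockout 3 it was -0.022, and without knockout 1 -0.045.

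Of the alpha chains that bind laminin, Itga7, known from skeletal muscle, had all 3 probe sets lower in the knockouts. The dimmest of them read 8.39, 8.22 and 8.21 in the knockouts, against 8.67, 8.26 and 8.41 in wild type, so the groups overlapped and wild type 1 stood above the other arrays. Its log2 difference was -0.17 (SE 0.10, 95% interval -0.40 to 0.053, limma adjusted p = 0.927), and -0.059 without wild type 1. The brightest read 10.62, 10.61 and 10.52 in the knockouts, against 10.75, 10.62 and 10.66 in wild type, a log2 difference of -0.092, and overlapped only through knockout 1 and wild type 2. The last read 10.39, 10.45 and 10.45 in the knockouts, against 10.50, 10.41 and 10.45 in wild type, and differed by -0.022. Itga3, a laminin receptor chain of migrating neurons and epithelia, read 8.33, 8.65 and 8.43 in the knockouts at one probe set, against 8.63, 8.59 and 8.58 in wild type. Its log2 difference of -0.13 (SE 0.082, limma adjusted p = 0.927) came from knockouts 1 and 3, while knockout 2 was the highest array, and it was -0.064 without knockout 1 and -0.22 without knockout 2. The brighter Itga3 probe set also differed by -0.064, and by -0.028 without knockout 1. Itga6, which pairs with beta 1 or beta 4, differed by 0.041 at a dim probe set (percentile 10.2), and by -0.003 without knockout 1.

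As deposited, alpha chains that recognise the RGD sequence of fibronectin and vitronectin had the smallest differences among the integrins. Itgav, the alpha v chain to which L1 itself can bind, read 11.34, 11.31 and 11.39 in the knockouts at its brightest probe set, against 11.39, 11.32 and 11.27 in wild type. The values of the genotypes were interleaved, with a log2 difference of 0.021 (95% interval -0.12 to 0.16), and the other 2 probe sets differed by 0.018 and 0.001. Itga5, the main fibronectin receptor chain, differed by -0.009 and Itga8, which binds nephronectin, by 0.00002 and -0.020. Itga2, a collagen receptor chain, differed by -0.024. Over the 6 RGD-binding probe sets the log2 differences ran from -0.020 to 0.021. Across all 21 alpha chain probe sets 15 were lower, with a median of -0.022 that turned to 0.0005 after quantile normalization, 0.004 after cyclic loess and 0.010 after median centring. Without knockout 1 it was -0.026.

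Integrins of leukocytes were dim to moderate, except 1 probe set for Itgb7 at percentile 79.5, and mostly lower in the knockouts, by small amounts. As deposited, 7 of 8 probe sets for Itga4, Itgae, Itgal, Itgam and Itgax were lower, with a median log2 difference of -0.048. All 4 for Itgb2, Itgb2l and Itgb7 were lower, between -0.068 and -0.063. Over all probe sets 62.3% were lower, with a median of -0.023. By quantile normalization the medians were -0.024 for these alpha chains and -0.031 for these beta chains (-0.004 over all probe sets). Median centring gave -0.017 and -0.033 (0.009 over all) and cyclic loess -0.023 and -0.038 (-0.004). Itga4, which binds VCAM1, read 6.25, 6.28 and 6.08 in the knockouts at the middle of its 3 probe sets by level, against 6.43, 6.31 and 6.33 in wild type. The groups did not overlap (log2 difference -0.15, SE 0.072, limma adjusted p = 0.922), yet its other probe sets differed by -0.056 and 0.022. Itgb2, the beta chain common to Itgal, Itgam and Itgax, read 6.62, 6.68 and 6.62 in the knockouts, against 6.73, 6.70 and 6.70 in wild type, also without overlap, at a difference of -0.068 (limma adjusted p = 0.932). Itgam, the alpha M chain of microglia and myeloid cells, differed by -0.064 with overlapping groups, and Itgax by -0.019. Of the 7 microglial and leukocyte marker genes 2 were higher and 5 lower, and their mean log2 level ran from 8.39 to 8.52 in the knockouts and from 8.47 to 8.53 in wild type. The pan-leukocyte gene Ptprc lay at percentiles 1.26 to 15.2. The part of these cells in the integrin values was not tested. Itgb7, whose protein pairs with the alpha 4 and alpha E chains, had no overlap between genotypes at its dim probe set (-0.063) and overlap at its bright one (-0.066).

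Itgb1bp1, the binder of the beta 1 tail, differed by -0.064, -0.033 and 0.012 log2 at its 3 probe sets. At the first of these the arrays read 9.62, 9.73 and 9.79 in the knockouts, against 9.51, 10.01 and 9.80 in wild type, the widest within-group spread of all members (SD 0.18 log2, pooled over genotypes). At the next they read 9.28, 9.46 and 9.33 in the knockouts, against 9.52, 9.24 and 9.41 in wild type, and at the last 10.16, 10.17 and 10.23, against 10.11, 10.22 and 10.19. The genotypes overlapped at each. The median was -0.033, and 0.004 without knockout 1.

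Cadherins showed as many small differences upward as downward. Of 17 probe sets 8 were higher and 9 lower, with a median log2 difference of -0.004 that the other scalings took above 0 (0.018 by quantile normalization, 0.028 by median centring, 0.010 by cyclic loess), as did leaving out knockout 1 (0.017). Among type I cadherins, Cdh2, the neural cadherin of neurons and glia, read 10.81, 10.79 and 10.85 in the knockouts, against 10.67, 10.90 and 10.84 in wild type. The knockout values fell inside the wild type range, and the log2 difference was 0.014 (95% interval -0.15 to 0.17). Cdh3, the placental cadherin, read 10.64, 10.72 and 10.62 in the knockouts, against 10.69, 10.61 and 10.65 in wild type (difference 0.011), while its dimmer probe set differed by -0.049. Cdh1, the epithelial cadherin, read 10.07, 10.25 and 10.02 in the knockouts, against 10.10, 10.18 and 10.02 in wild type (difference 0.015). The genotypes were interleaved at each of these probe sets.

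Cdh4, the retinal cadherin of developing brain nuclei and tracts, gave the lowest unadjusted p among the cadherins at 1 of its 3 probe sets. That probe set, at percentile 27.1 of mean value, read 7.58, 7.77 and 7.52 in the knockouts, against 7.79, 7.77 and 7.83 in wild type on the log2 scale. Knockouts 1 and 3 lay below all wild type arrays and knockout 2 level with wild type 2. This probe set was counted as open to cross-hybridization. The log2 difference was -0.17 (SE 0.074, 95% interval -0.34 to -0.009, limma adjusted p = 0.922), and -0.12 without knockout 3. The brightest read 9.26, 9.33 and 9.22 in the knockouts, against 9.34, 9.33 and 9.26 in wild type, and differed by -0.041. The dimmest differed by 0.059 in the other direction. Cdh15, the M-cadherin of muscle and of cerebellar granule cells, likewise had probe sets on either side of 0. It differed by -0.088 at the brighter, with overlapping groups, and by 0.082 at the dimmer, where the knockouts read 6.64, 6.62 and 6.56 and the wild type arrays 6.54, 6.47 and 6.56.

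Type II cadherins, whose members mark different neuron groups, were mostly dim. Cdh9 read 5.95, 5.98 and 5.84 in the knockouts, against 6.08, 5.99 and 6.11 in wild type, with no overlap and a log2 difference of -0.14 (SE 0.066, limma adjusted p = 0.922). Cdh8 read 6.68, 6.69 and 6.57 in the knockouts, against 6.70, 6.79 and 6.79 in wild type, again without overlap, at -0.11 (SE 0.064, limma adjusted p = 0.927). In both, the highest knockout array came within 0.02 log2 of the lowest wild type array. Cdh10 differed by -0.054, Cdh6 by -0.004 and Cdh11, a cadherin of mesenchyme and meninges, by 0.005. Cdh5, the cadherin of endothelial junctions, read 8.67, 8.66 and 8.67 in the knockouts, against 8.62, 8.66 and 8.42 in wild type. Its log2 difference of 0.10 came largely from wild type 3 and was 0.026 without that array. The 6 endothelial marker genes measured had a mean log2 level of 9.21 to 9.24 in the knockouts and 9.17 to 9.27 in wild type, with 2 higher and 4 lower. Their part in the Cdh5 value was not tested. Cdh13, the cadherin held by a lipid anchor, differed by 0.043 and the kidney cadherin Cdh16 by -0.011.

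The protocadherins with a probe set of their own were Pcdh12, known from endothelial cells, and Pcdh7, known from brain and heart. Pcdh12 read 9.12, 9.22 and 8.94 in the knockouts, against 9.26, 9.23 and 9.22 in wild type. Knockout 3 stood well below the rest and knockout 2 reached the wild type values, for a log2 difference of -0.14 (SE 0.076, limma adjusted p = 0.922) that was -0.066 without knockout 3. Pcdh7 read 9.08, 9.22 and 9.18 in the knockouts at the brighter probe set, against 9.25, 9.16 and 9.18 in wild type, a difference of -0.039. The dimmer one read 6.19, 6.29 and 6.22 in the knockouts, against 6.22, 6.21 and 6.30 in wild type, a difference of -0.013. The genotypes overlapped for both, and without knockout 1 the differences were 0.003 and 0.007. The median of the 3 protocadherin probe sets was -0.039, and 0.003 without that array.

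Laminins were lower in the knockouts at 12 of 14 probe sets, and 11 of 14 after each of the other 3 scalings. These probe sets cover 9 genes. With 1 probe set per gene 7 were lower and 2 higher, where 61.7% of all were lower. Over all probe sets 62.3% were lower as deposited, 52.2% after quantile normalization or cyclic loess and 44.6% after median centring. The median log2 difference was -0.063, beside -0.023 over all probe sets as deposited. Quantile normalization gave -0.031 (-0.004 over all probe sets), median centring -0.032 (0.009) and cyclic loess -0.032 (-0.004). Leaving out 1 array at a time gave medians from -0.10 to -0.044, and -0.065 without knockout 1. No laminin probe set passed the threshold (lowest limma adjusted p = 0.922). At an unadjusted p under 0.05 there were 2 (5.08% of all probe sets), both for the 1 gene Lamb1.

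Lamb1 encodes the beta 1 chain of most laminins of developing basement membranes. At the brighter of its 2 probe sets the knockouts read 8.48, 8.62 and 8.36 and the wild type arrays 8.71, 8.64 and 8.86 on the log2 scale. All knockouts lay below all wild type arrays, though knockout 2 and wild type 2 were only 0.02 apart, and the log2 difference was -0.25 (SE 0.083, 95% interval -0.43 to -0.065, limma adjusted p = 0.922). The dimmer one read 6.96, 6.98 and 7.01 in the knockouts, against 7.04, 7.24 and 7.16 in wild type, again without overlap. It differed by -0.16 (SE 0.067, 95% interval -0.31 to -0.015, limma adjusted p = 0.922). Lamb1 was the only gene of the 46 whose probe sets all had an unadjusted p under 0.05 as deposited. The brighter probe set was counted as open to cross-hybridization and the dimmer was not. The differences were -0.24 and -0.15 without knockout 1, and over all single omissions they ran from -0.31 to -0.19 at the brighter probe set and from -0.22 to -0.12 at the dimmer. After quantile normalization the values were -0.22 and -0.12, and only the brighter probe set kept an unadjusted p under 0.05, as with cyclic loess and median centring. The dimmer had an unadjusted limma p of 0.12 with quantile normalization, 0.10 with cyclic loess and 0.086 with median centring. Without wild type 3 neither probe set had an unadjusted p under 0.05.

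Most other laminin chains also had lower knockout means, by smaller amounts. Lama5, the alpha chain of mature vascular basement membranes, read 8.72, 8.76 and 8.53 in the knockouts at one probe set, against 8.91, 8.70 and 8.85 in wild type (log2 difference -0.15, SE 0.081, limma adjusted p = 0.922). The groups overlapped there, and the difference was -0.082 without knockout 3. At the other it read 9.27, 9.41 and 9.30 in the knockouts, against 9.41, 9.43 and 9.44 in wild type, with no overlap but with knockout 2 close to wild type 1 (difference -0.10, SE 0.062, limma adjusted p = 0.927). Lamc1, the gamma chain that partners Lamb1 in most laminins, read 11.17, 11.27 and 11.13 in the knockouts at its bright probe set, against 11.29, 11.13 and 11.36 in wild type. It overlapped, at a log2 difference of -0.069, and the dim probe set differed by -0.035. Lama2, the muscle and glial laminin chain lost in a congenital muscular dystrophy, differed by -0.10, and Lama4 of endothelial basement membranes by -0.045 and -0.012. The epidermal chains Lamb3 and Lama3 differed by -0.070 and -0.041 for Lamb3, whose brighter probe set read 9.07, 9.19 and 9.08 in the knockouts, against 9.23, 9.09 and 9.15 in wild type, and by -0.058 for Lama3.

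Lama1 and Lamb2 were the laminins with a higher knockout mean. Lama1, the alpha chain of the pial basement membrane, differed by 0.031 with overlapping groups. Lamb2, the beta chain of neuromuscular synapses, read 7.97, 7.54 and 7.56 in the knockouts, against 7.52, 7.56 and 7.62 in wild type. Knockout 1 stood 0.35 log2 above every other array and set the difference of 0.12, which was -0.021 without it. That array also had the Gapdh control gap of 0.67 described above, and the part of RNA quality in the Lamb2 value was not tested. Of 5 meningeal and fibroblast marker genes 4 were higher and 1 lower, and their mean log2 level ran from 10.14 to 10.23 in the knockouts and from 10.08 to 10.20 in wild type. Other marker lists differed more, though none past the threshold. At their brightest probe sets all 4 oligodendrocyte genes were lower (median log2 difference -0.17). Of 4 astrocyte and Bergmann glia genes 3 were higher and 1 lower, Aqp4, at -0.37 without overlap and -0.24 with overlap at its other probe set. Of 4 platelet and blood genes 2 were higher, Hba-a1 at 0.29 without overlap, and 2 lower. The part of any of these cells in the laminin values was not tested.

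Nectin3 had the largest difference of all members, at 1 of its 2 probe sets. Nectin-3 binds nectin-1 and nectin-2 on the facing membrane at synapses and other contacts. That probe set read 6.86, 6.85 and 7.12 in the knockouts, against 7.21, 7.37 and 7.36 in wild type on the log2 scale. All knockouts lay below all wild type arrays, with knockout 3 nearest to them. The log2 difference was -0.37 (SE 0.085, 95% interval -0.56 to -0.18), and its unadjusted p of 0.00133 ranked 18 among all probe sets, yet it did not pass (limma adjusted p = 0.841). It was -0.33 without knockout 1, and between -0.46 and -0.32 over all single omissions. The other probe set read 6.89, 6.99 and 6.74 in the knockouts, against 7.11, 6.71 and 6.86 in wild type, with interleaved genotypes and a log2 difference of -0.021 (95% interval -0.25 to 0.21). The intervals of both probe sets share the stretch from -0.25 to -0.18, but the differences lay 0.35 log2 apart. No common value is read from that stretch. Both were dim, at percentiles 18.4 and 15.1 of mean value. Only the probe set with the smaller difference was counted as open to cross-hybridization.

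Nectin2 encodes a partner of nectin-3 that is also found on epithelia and leukocytes. Its brighter probe set read 10.01, 10.01 and 10.06 in the knockouts, against 9.995, 9.95 and 10.03 in wild type, a log2 difference of 0.035 (95% interval -0.10 to 0.16). The other read 8.59, 8.55 and 8.38 in the knockouts, against 8.64, 8.45 and 8.55 in wild type, a difference of -0.042. The genotypes overlapped at both. Over the 4 nectin probe sets the median was -0.031, and -0.055 without knockout 1, but 0.020 without knockout 3 or without wild type 1. It was 0.006 by quantile normalization, 0.0005 by median centring and -0.001 by cyclic loess.

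**Figure D3:**
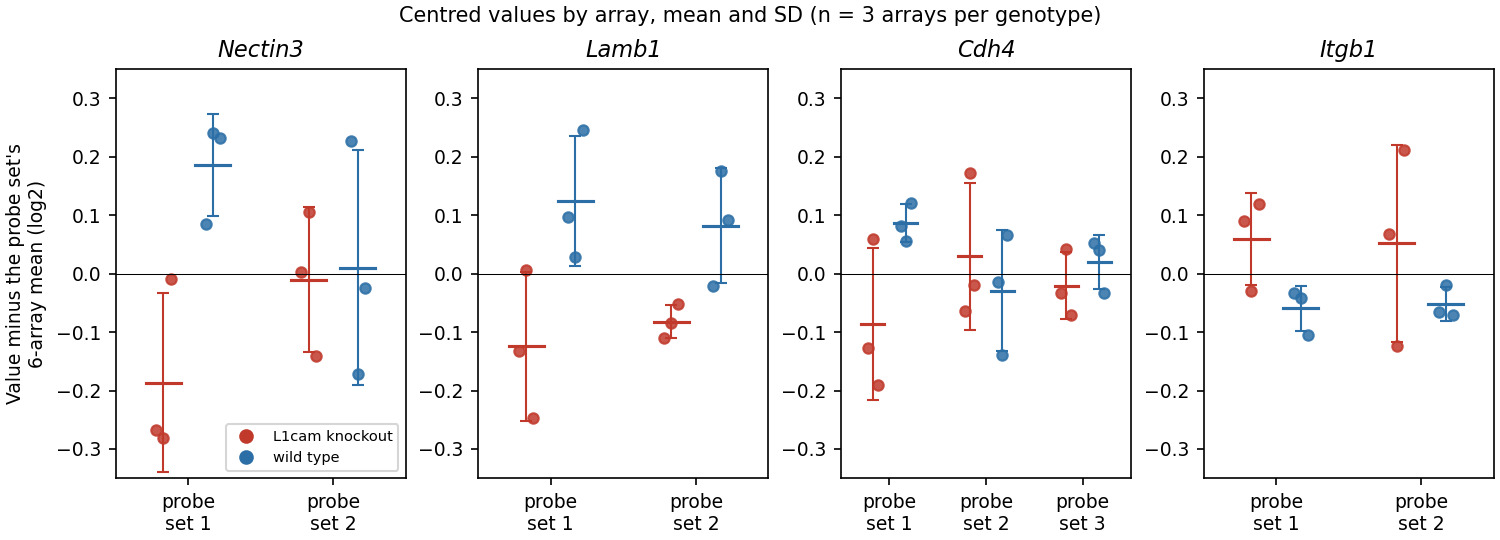
Values of each array after subtracting the probe set's mean over 6 arrays (log2, vertical axis) for Nectin3, Lamb1, Cdh4 and Itgb1, with the mean and SD of each genotype (n = 3) and probe sets ordered by unadjusted p. The knockouts lie below wild type without overlap at the first Nectin3 probe set and at both for Lamb1, and are interleaved with wild type at the second Nectin3 probe set.

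Several genes were measured more than once, which checks a difference within the same arrays. As deposited, 14 of the 21 genes with more than 1 probe set had the same sign at every probe set, and 7 had mixed signs. Of the 14, 12 were lower and 2 higher (Itgav and Itgb1), where 62.3% of all probe sets were lower. The share of same signs over all genes with several probe sets was not counted. After median centring Itga7, Lama4, Nectin3 and Pcdh7 had mixed signs, while Itga8 was higher at both its probe sets. The widest disagreement was that of Nectin3, 0.35 log2 between its probe sets, followed by Cdh4 at 0.23. The probe sets of Itgb7 differed from each other by 0.002 and those of Itgb1 by 0.015.

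Seen by array, the lean was not shared by all knockouts. The median deviation of the 72 probe sets from their 6-array means was -0.031 in knockout 1, 0.011 in knockout 2 and -0.052 in knockout 3, against 0.043, -0.008 and 0.028 in wild type arrays 1, 2 and 3. Over all probe sets these medians were -0.011, 0.012 and -0.028 in the knockouts, against 0.024, -0.002 and 0.008 in wild type. The members spread more widely between arrays than all probe sets did, and knockout 2 lay below wild type 3 for the members but above it for all probe sets. For laminins the deviations were -0.045, 0.009 and -0.074 in the knockouts, against 0.044, -0.027 and 0.069 in wild type, and knockout 2 lay above wild type 2.

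**Figure D4:**
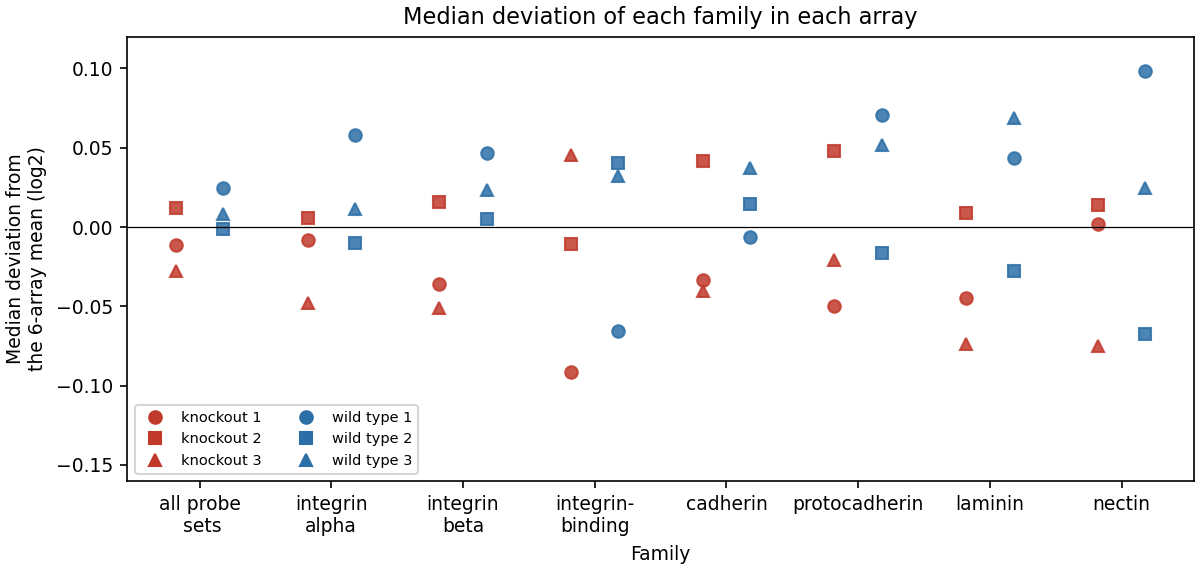
Median deviation of each family's probe sets from their 6-array means (log2, vertical axis) in every array, with all probe sets at the left. Knockout 3 is the lowest array for integrin alpha chains, integrin beta chains, cadherins, laminins and nectins. Knockout 2 lies between the wild type arrays in every family but the cadherins, where it is the highest.

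Genes that work with these families showed no difference past the threshold in either direction. Each gene is counted by its brightest probe set. Of 14 linkers and adapters of integrins 6 were higher and 8 lower (median log2 difference -0.028), among them Bcar1, a docking protein of focal adhesions, at 0.10 (SE 0.058) without overlap, Cd47, an integrin-associated protein, at 0.11 and -0.057, and the actin crosslinker Actn1 at -0.090, -0.057 and -0.022. Of 9 catenins and cadherin partners 7 were higher and 2 lower (median 0.017). Ctnnd2, the delta-catenin of neurons, differed by 0.17 (SE 0.073, limma adjusted p = 0.922), Ctnna2, the alpha-catenin of neurons, by 0.092, 0.094 and 0.045, and the atypical cadherin Celsr2 by -0.092 and -0.076. Of 13 ligands and receptors of the matrix 5 were higher and 8 lower (median -0.045), with Tnc, a glial matrix protein, at 0.18 and 0.092, Sgcb, a sarcoglycan of the dystroglycan complex, at -0.16 and fibronectin, Fn1, at -0.11. Of 3 relatives of the nectins measured, Cadm1, a synaptic adhesion molecule, differed by -0.13 without overlap at one probe set but by 0.096 and 0.037 at the others, Cd96 by -0.10 and Pvr by -0.037.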

How the data were processed

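Total RNA of 6 cerebella (3 per genotype) was hybridised to 1 array each. The authors deposited log2 expression values made with RMA, per the submitters' processing notes. The version and settings of RMA and a genome build were not given in the sources used here. Coordinates are left out. Between-array normalization of this kind removes a change in total RNA. Of 12488 probe sets 66 array controls were left out. Symbols came from the array annotation (10833 probe sets with 1 symbol, 396 with several, 1193 with none). All 46 member genes were found by gene identifier in RefSeq's table of GRCm38.p6 under the same symbol. Each array was taken as 1 mouse, as the series' design text counts 3 per genotype.

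Differences (knockout minus wild type) were fitted with limma 3.58.1 in R 4.3.3 (lmFit, eBayes, 2-sided) on all 12422 probe sets as deposited, with Benjamini-Hochberg adjustment over all of them, and calls were made below 0.05. For L1cam an exact permutation p was added (scipy 1.17.1). In data simulated for this comparison over 12422 probe sets the fit found 98% of 100 differences of 1.5-fold and 100% of 100 of 2-fold, and made 13 false calls. The simulated noise came from the variance model of the fit, and the many changed probe sets loosened the adjustment. In the real arrays L1cam, 1.52-fold lower in the knockouts, did not pass (limma adjusted p = 0.841). The simulated shares therefore do not carry over to these arrays. Arrays have no read depth, and their number limits the precision: the median 95% interval reached 0.158 to either side. The named probe sets were, per family, the 3 with the highest mean value and the 3 with the smallest unadjusted p, all where a family had 6 or fewer, and the other probe sets of their genes, with 3 genes per partner list by unadjusted p. Further members were named after their values were seen. Members, lists and rules were chosen with earlier results of these data known. Each result was recomputed under 15 alternatives.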

Additional observations from a re-analysis of the deposited data

Results flagged for a closer look

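The array's control probe sets, which enter no comparison above, gave gaps between 3' and 5' ends that in knockout 1, for 4 controls, and in knockout 3, for 3 of them, exceeded the wild type arrays. For Gapdh the log2 gap was 0.67 in knockout 1 and 0.130 in knockout 3, where wild type reached 0.125. The gap for Actb was 1.09 in knockout 1 and 0.95 in knockout 3, against at most 0.93. Pyruvate carboxylase read 0.88 in knockout 1 but 0.65 in knockout 3, against at most 0.85, and the transferrin receptor 1.334 in knockout 1 and 1.48 in knockout 3, against at most 1.330.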

How the results depend on the processing

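No member passed an adjusted p of 0.05 under any of the 15 alternatives (lowest 0.424, with array weights, for Nectin3 and Lamb1), and over all probe sets 1 passed without knockout 3 and 0 otherwise. All 11 members without overlap kept their sign under quantile normalization, median centring and cyclic loess. The remaining alternatives could not change it, because all knockout values of these members lay on one side of all wild type values. Their kept sign is therefore no measure of stability beside the other members. Among all members 90 of 998 recomputed differences, in 33 members, changed sign. The 4 members at an unadjusted p under 0.05 became 2 with quantile normalization, with median centring, without probe sets open to cross-hybridization and with 1 probe set per gene, 1 with the filter at the 40th percentile and 7 with array weights, and ran from 1 to 13 over single omissions. Over all probe sets the 631 became 401 with the filter and 1162 with array weights, and ran from 395 to 1078 over single omissions.

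Median centring moved the median of the members to -0.0093, of integrin alpha chains to 0.010 and of integrin beta chains to -0.032. Integrin beta chains were at -0.027 with quantile normalization and -0.033 with cyclic loess. Protocadherins were at -0.090 with the filter and with 1 probe set per gene, and nectins at -0.17 with the latter. Over single omissions the median ran from -0.066 to -0.026 for all members, -0.081 to -0.022 for integrin beta chains, -0.071 to 0.035 for Itgb1bp1 and -0.10 to 0.020 for nectins.

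Deviations of same-numbered arrays from their group means had correlations of 0.16, -0.32 and 0.17, within the range of the other pairs (-0.40 to 0.24). With 3 arrays per genotype these values cannot show whether the numbers pair the mice. With the replicate number as a block no member passed and 4 had an unadjusted p under 0.05, Itga7 taking the place of Cdh4. L1cam, also without overlap, kept its sign under the other scalings, and no alternative took it past the threshold. A difference of the size seen in most members, under 0.1 log2, is within the interval that 3 arrays per genotype allow.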

Other observations

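A further 8 probe sets carry between 9 and 14 symbols of the clustered alpha protocadherins, neuronal adhesion molecules that share their last exons, and so belong to no gene of their own. Their log2 differences (knockout minus wild type) ran from -0.10 to 0.12, with 3 higher, 5 lower and a median of -0.022. None had an unadjusted p under 0.05 in limma or genotypes that did not overlap.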
